A study of Mus musculus with 4 samples.

Results

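A total of 9 genes of the FGF and ERK signalling pathway were followed in mouse blastocysts, by the level of their mRNA (RNA-seq) and of the RNA fragments protected by ribosomes (RPF, from Ribo-seq). They were the rows whose gene symbol was Fgf4, Fgfr1, Fgfr2, Grb2, Spry2, Spry4, Dusp6, Etv4, or Etv5. Of the 20714 gene symbols listed in both assays these are 9, and each had 1 row per library. Both assays had 2 libraries, named replicates 1 and 2, and all 4 libraries were of untreated wild-type (WT) blastocysts. Their mothers were C57BL/6J females aged 4 weeks and their fathers PWK/PhJ males, and ovulation had been induced with gonadotropins. The strain field of the labels gives the cross as C57BL/6N x PWK. Embryos were taken at the 8-cell stage, grown to blastocysts in KSOM medium, and stripped of the zona pellucida. RNA-seq libraries were made with Smart-Seq2 from polyadenylated RNA, and Ribo-seq libraries from RNase I footprints in the presence of cycloheximide. The labels do not say that replicates came from separate pools of embryos, so p-values measure the spread between these libraries, which may be technical.

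FGF ligands bind receptor tyrosine kinases together with heparan sulfate on the cell surface. The activated receptor recruits the adaptor GRB2 and the exchange factor SOS, and the signal passes through RAS, RAF, and MEK to ERK, which switches on its own inhibitors (Sprouty proteins, DUSP6) and the ETS factors ETV4 and ETV5. In the mouse blastocyst, FGF4 made by the epiblast acts on FGFR1 and FGFR2 and is known for directing inner cells toward primitive endoderm, and embryos that lack Grb2 form no primitive endoderm.

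The bases around the start codon are shown for the 6 members with enough mRNA to be tested, because these are the bases at which a ribosome begins the coding sequence that Ribo-seq measures. Each line runs 5′ to 3′ on the coding strand of the transcript used here (GENCODE vM1 on NCBIM37, the assembly of mm9), with the ATG start codon in capitals.
Fgfr1: agaactgggATGtggggct
Fgfr2: agtgtgcagATGggattac
Grb2: gcgctcagaATGgaagcca
Spry2: caagacctgATGgaggcca
Dusp6: tcgacccccATGatagata
Etv5: ggaagcaccATGgatgggt
Counted from the A of the ATG, a purine (A or G) at position -3 stands in Fgfr1, Grb2, and Etv5, whereas Fgfr2, Spry2, and Dusp6 have C there. Grb2 and Etv5 have both a purine at -3 and G at position 4. Over the 9 members, 4 had the purine and 3 had both, beside 84.0% and 41.4% of 19460 mouse genes. An ATG upstream in the leader stood in 7 of the 9, beside 50.2% of genes, and was absent from Grb2 and Fgf4. These are descriptions of the sequence only.

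The coding sequences of the paralogues Etv4 and Etv5 share no identical stretch of 28 bases, about the length of a footprint. Their longest identical stretch of coding sequence is 23 bases (coding bases 1222 to 1244 of Etv4), shown here because a read inside it would fit either gene.
Etv4 and Etv5: ggcatcatgcagaaggtggctgg
Copies outside the genes are another matter. Of the 28-base windows of the Grb2 coding sequence, 60.6% (380 of 627) also occur elsewhere in the genome, in 2 stretches annotated as pseudogenes. These are Gm12791 at chr4:101547952-101548606 (376 windows) and Gm13542 at chr2:25850281-25850703 (59 windows). Of the windows of Etv5, 51.9% (809 of 1560) also occur in the pseudogene Gm4798 at chr10:71167036-71167986. Over whole transcripts, which the mRNA values use, the share was 22.9% for Grb2 and 56.4% for Etv5. No window of the other 7 coding sequences occurs elsewhere as an exact match. By the paper's methods the Ribo-seq alignment allowed mismatches and shorter matches, which exact windows of 28 bases do not cover. A share of the Grb2 and Etv5 reads is therefore uncertain in origin, and its part in the levels of these genes was not tested.

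The deposited levels are FPKM (fragments scaled by gene length and library depth), compared here between genes of the same assay. With the default effective length of Cufflinks (mean 200, SD 80 bases), the RPF level of a short coding sequence is raised more. For Grb2 (654 coding bases) the RPF implied 27.1 and 18.1 footprints, against 39.1 and 26.1 had the full length been used. For Fgfr2 (2523 coding bases) these were 62.5 and 79.1 against 67.9 and 85.9. The assays were normalized separately, so a value of RPF set beside one of mRNA is read against the median gene further on. Low values were mostly multiples of a fixed step, the worth of a whole fragment, and the steps implied 5457957 and 5170954 fragments in the RNA-seq replicates but 533627 and 484168 in the Ribo-seq replicates. For a short coding sequence such as that of Grb2, 1 footprint was worth 4.13 and 4.55 FPKM. All 7 trophectoderm markers were at 1 FPKM or more in all 4 libraries, and their summed mRNA level was 3045 and 2824 FPKM. Most of that sum was Krt8 (1078 and 838 FPKM) and Krt18 (1757 and 1754 FPKM). The mRNA of Eomes (15.5 and 32.4 FPKM) and Elf5 (21.7 and 45.1 FPKM) was higher in replicate 2, and that of the other trophectoderm markers was not. The summed mRNA of 6 epiblast markers was 165 FPKM in replicate 1 but 60.3 in replicate 2, with Nanog at 69.8 and 28.1 and Tdgf1 at 22.2 and 2.12. The RPF of the same 6 genes summed to 884 and 1096 FPKM. The 7 primitive endoderm markers summed to 15.0 and 11.2 FPKM for mRNA and to 206 and 189 for RPF. Of 7 cumulus and granulosa markers 6 were listed at 0 in every library, and oviduct and blood markers summed to at most 1.62 FPKM, with no RPF. In whole embryos, fewer cells of a type and less RNA per cell cannot be told apart.

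**Figure D1:**
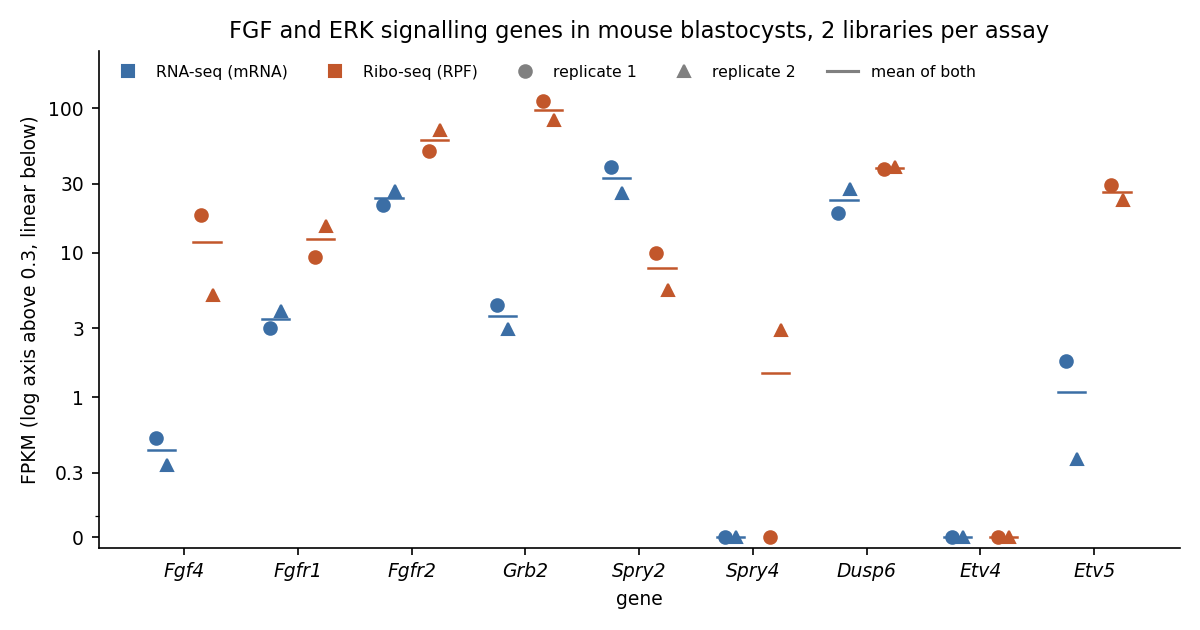
Level of each gene in FPKM (vertical axis, logarithmic above 0.3 and linear below) in the 2 RNA-seq libraries (blue) and 2 Ribo-seq libraries (orange), with circles for replicate 1, triangles for replicate 2, and a line at the mean. Spry2 is the gene whose RPF lies below its mRNA in every library, at 10.0 and 5.53 against 39.3 and 26.1 FPKM. Grb2, Etv5, and Fgf4 have RPF far above their mRNA, that of Fgf4 from only 4.02 and 1.01 footprints.

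The ligand Fgf4 (ENSMUSG00000050917.4, chr7:152047291-152051148, plus strand) was barely detected as mRNA, at 0.519 and 0.342 FPKM in replicates 1 and 2. Its RPF level was 18.4 and 5.08 FPKM. Those levels rest on very few molecules, 4.02 and 1.01 footprints, and the exact 95% Poisson intervals were 5.00 to 47.0 and 0.128 to 28.2 FPKM, which cover counting error only. The mRNA values came from 8.01 and 5.01 fragments, and their Poisson intervals overlapped, at 0.224 to 1.02 and 0.111 to 0.797 FPKM. RNA-seq replicate 1, the higher of the pair for Fgf4 mRNA, was also the library with more epiblast mRNA, and the part of this in the Fgf4 level was not tested. Fgf4 ranked above 51.7% of the 20714 genes by mean mRNA and above 71.6% by mean RPF.

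Of the 21 other FGF ligands, 16 were listed at 0 in all 4 libraries and 19 had no RPF in either library. Fgf10 was the only one of them above 0 in all 4 libraries, a ligand best known from limb and lung outgrowth. Its mRNA was 3.42 and 1.07 FPKM and its RPF 8.77 and 4.83 FPKM, from 2.01 and 1.00 footprints, so that the RPF of Fgf4 and Fgf10 could not be ranked at this depth.

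Of the FGF receptors, Fgfr2 had the highest level in both assays. These are levels of RNA and footprints in whole embryos, and receptor protein was not measured. The Fgfr2 gene (ENSMUSG00000030849.10) has its transcript at chr7:137307223-137409705 on the minus strand, and its mRNA was 21.4 and 26.6 FPKM. Fgfr1 (ENSMUSG00000031565.10, chr8:26629264-26686186, plus strand) had mRNA of 3.02 and 3.93 FPKM. The Fgfr2 mRNA level was thus 7.08 and 6.77 times that of Fgfr1, and the libraries of both genes did not overlap. The RPF level kept this order, with 50.4 and 70.4 FPKM for Fgfr2 (62.5 and 79.1 footprints) and 9.35 and 15.4 FPKM for Fgfr1 (11.3 and 17.0 footprints). By RPF, Fgfr2 was 5.40 and 4.56 times higher than Fgfr1. An exon of Fgfr1 overlaps Gm16159 on the opposite strand, and since Smart-Seq2 does not mark strand, mRNA reads of both cannot be told apart there. Fgfr3 and Fgfr4 stayed near 0, with mRNA of 0 in both libraries for Fgfr3 and of 0.249 and 0.526 FPKM for Fgfr4, the member of its list with the most RPF (0 and 1.87 FPKM).

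Grb2 (ENSMUSG00000059923.6, chr11:115505359-115569911, minus strand), the adaptor that carries SOS to the receptor, had the highest RPF level of the 9 genes. Its RPF was 112 and 82.3 FPKM (27.1 and 18.1 footprints), above 91.0% of genes. Its mRNA was only 4.32 and 2.98 FPKM, close to that of Fgfr1 and above 71.0% of genes. The mean RPF was 26.6 times the mean mRNA in FPKM, on separate scales, whereas for Fgfr2 the same ratio was 2.52. For Fgf4 and Etv5 this ratio was 27.3 and 24.5.

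Spry2 and Dusp6, a Sprouty inhibitor of receptor signalling and an ERK phosphatase, had much mRNA but unlike RPF. Spry2 (ENSMUSG00000022114.4, chr14:106291166-106296036, minus strand) had the highest mean mRNA of the 9 genes, at 39.3 and 26.1 FPKM, above 91.7% of genes. Its RPF was 10.0 and 5.53 FPKM, from 4.01 and 2.0 footprints, above 67.3% of genes. Dusp6 (ENSMUSG00000019960.6, chr10:98725865-98730122, plus strand) had mRNA of 18.9 and 27.6 FPKM and RPF of 37.7 and 39.3 FPKM, with 19.4 and 18.3 footprints. The RPF of Dusp6 was 3.75 and 7.11 times that of Spry2 in replicates 1 and 2, although the mRNA of Dusp6 was 0.480 and 1.06 times that of Spry2. The Poisson intervals of Spry2 RPF were wide, at 2.73 to 25.7 and 0.669 to 20.0 FPKM. They overlapped that of Dusp6 in replicate 1 (22.2 to 57.7 FPKM) but not in replicate 2 (22.9 to 61.0 FPKM).

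Spry4 (ENSMUSG00000024427.6, chr18:38745922-38760922, minus strand), another Sprouty gene, was listed at 0 in both RNA-seq libraries and in Ribo-seq replicate 1. Its RPF in replicate 2 was 2.94 FPKM, the worth of 1.00 footprint. For Spry4 mRNA a floor of 3 fragments was 0.125 and 0.132 FPKM, beside the 39.3 and 26.1 FPKM of Spry2.

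Of the ETS pair Etv4 and Etv5, Etv5 alone was detected. Etv5 (ENSMUSG00000013089.8, chr16:22381385-22439691, minus strand) had RPF of 29.5 and 23.2 FPKM, from 21.8 and 15.6 footprints. Its mRNA was 1.78 and 0.375 FPKM, and this 4.74-fold gap between the RNA-seq replicates was the widest of the members with mRNA in both. The gap was 1.01 on the log2(FPKM + 1) scale, where gaps at low FPKM look smaller, against a median of 0.32 over 5928 genes of a like level. Replicate 1, the higher one, was also the library with more epiblast mRNA, and the part of this in the gap was not tested. Etv4 (ENSMUSG00000017724.8, chr11:101631061-101646685, minus strand) was listed at 0 in all 4 libraries. For Etv4 a floor of 3 fragments was 0.250 and 0.264 FPKM of mRNA and 4.46 and 4.92 FPKM of RPF. The RPF of Etv5 lay above this floor in both libraries, Poisson intervals included (18.6 to 45.0 and 13.6 to 38.7 FPKM), whereas the interval of Etv5 mRNA in replicate 2 (0.146 to 0.749 FPKM) reached below it.

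**Figure D2:**
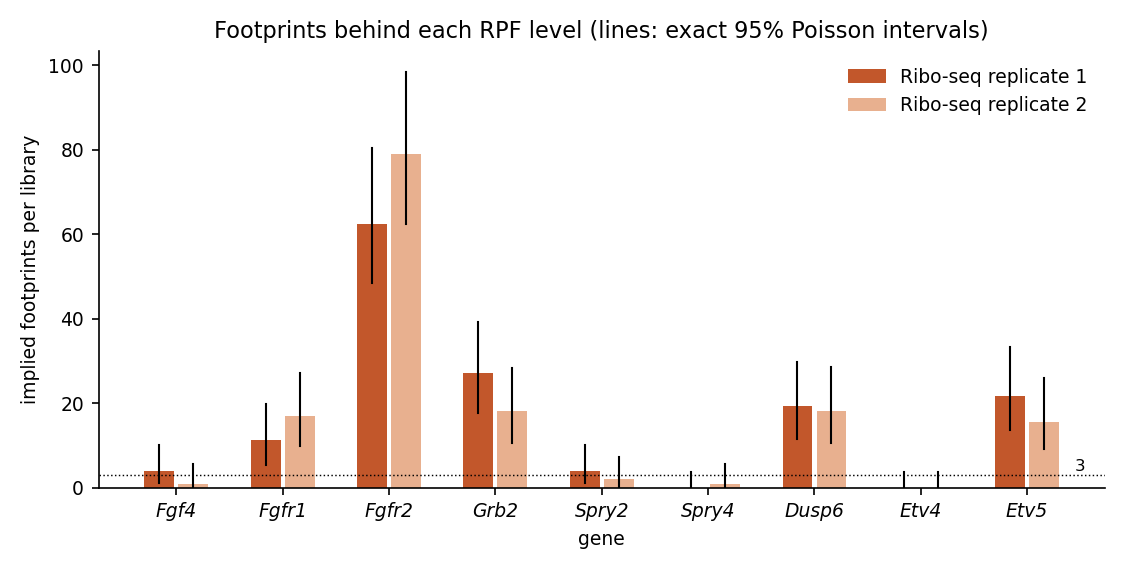
Footprints per Ribo-seq library implied by the RPF level of each gene (vertical axis), with bars for replicates 1 and 2, exact 95% Poisson intervals as lines, and a dotted line at 3 footprints. The 5 genes Fgfr1, Fgfr2, Grb2, Dusp6, and Etv5 have at least 11.3 footprints in both libraries, while Fgf4, Spry2, Spry4, and Etv4 have 4.02 or fewer.

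The order of the genes differed between the assays. By mean mRNA it was Spry2 (32.7 FPKM), Fgfr2 (24.0), Dusp6 (23.2), Grb2 (3.65), Fgfr1 (3.47), Etv5 (1.08), Fgf4 (0.430), and then Spry4 and Etv4 at 0. Neighbours were not separated beyond the range of their 2 libraries between Spry2 and Fgfr2, Fgfr2 and Dusp6, Grb2 and Fgfr1, Etv5 and Fgf4, and Spry4 and Etv4. By mean RPF the order was Grb2 (97.2 FPKM), Fgfr2 (60.4), Dusp6 (38.5), Etv5 (26.4), Fgfr1 (12.4), Fgf4 (11.8), Spry2 (7.79), Spry4 (1.47), and Etv4 (0). Here Grb2, Fgfr2, Dusp6, and Etv5 were each separated from the next, by the range of their 2 libraries alone. The Poisson intervals of these neighbours all overlapped in replicate 2, at 48.6 to 129.5 FPKM for Grb2, 55.6 to 87.6 for Fgfr2, 22.9 to 61.0 for Dusp6, 13.6 to 38.7 for Etv5, and 9.02 to 24.8 for Fgfr1. Fgfr1 was not separated from Fgf4, nor Fgf4 from Spry2, nor Spry4 from Etv4. Grb2 thus moved from the fourth place to the first and Spry2 from the first to the seventh. On this scale the RPF of a short coding sequence such as that of Grb2 is raised, as given above. The order was not recomputed at full length.

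The replicates of an assay differed by about as much as other genes of the same level for the receptors and Grb2. On the log2(FPKM + 1) scale, Fgfr2 differed by 0.30 for mRNA, against a median of 0.26 for genes of a like level, and by 0.47 for RPF, against 0.42. Grb2 differed by 0.42 (median 0.35) and 0.44 (median 0.36). Spry2 and Dusp6 differed more than that in mRNA, by 0.57 (median 0.24) and 0.53 (median 0.26), and in opposite directions, with Spry2 higher in replicate 1 and Dusp6 in replicate 2.

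RPF and mRNA were then compared for each gene, to ask where ribosome occupancy stood apart from the amount of transcript. Since the assays have separate scales, the difference on the log2(FPKM + 1) scale was centred on the median of all 8327 genes with a mean of at least 1 FPKM in both assays, where RPF exceeded mRNA by 1.26. For genes of low FPKM this scale makes a difference look smaller than it is. Grb2 and Etv5 had more RPF for their mRNA than the median gene, Spry2 had less, and Fgfr1, Fgfr2, and Dusp6 did not pass the test. Fgf4, Spry4, and Etv4 had mean mRNA under 1 FPKM and were not tested. With limma, 3 of the 6 members tested passed an adjusted p under 0.05 and a difference of at least 1 log2 unit, beside 12.4% of all genes tested (9.13% with RPF higher and 3.24% with RPF lower). The median difference of the 6 members was 0.16, beside 0 by construction for all genes.

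**Figure D3:**
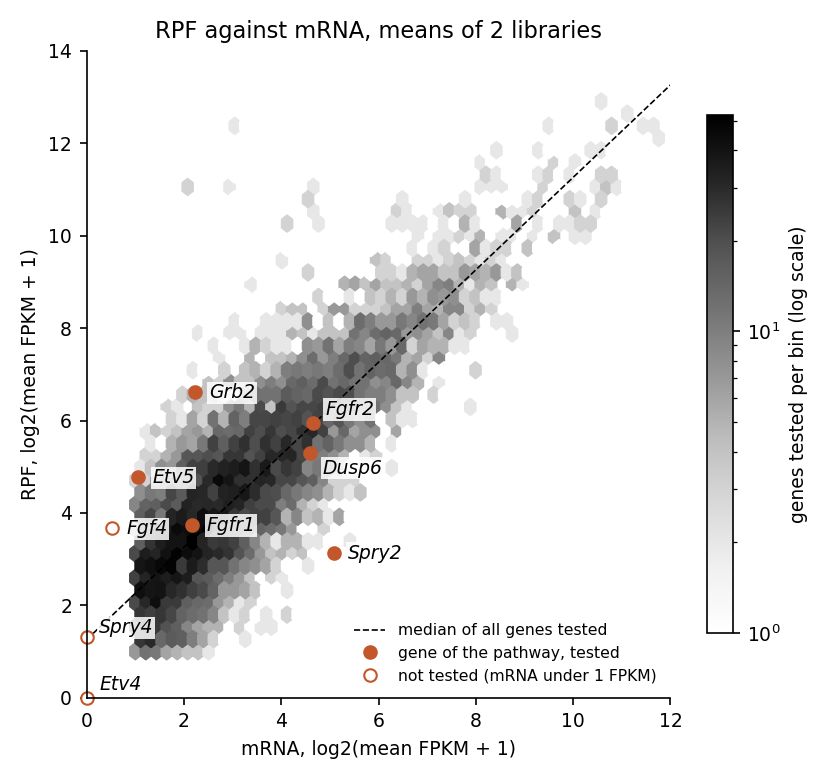
Mean RPF against mean mRNA, both as log2(mean FPKM + 1) over 2 libraries, for the 8327 genes tested (grey bins, darker for more genes) and the 9 pathway genes (orange, open where not tested). The dashed line marks the median difference of 1.26, and Grb2 and Etv5 lie well above it, Spry2 well below it, and Fgfr1, Fgfr2, and Dusp6 near it.

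For Grb2, the log2 levels of RPF were 6.82 and 6.38 and those of mRNA 2.41 and 1.99, so that every Ribo-seq library stood far above both RNA-seq libraries. The centred difference was 3.14 ± 0.32 (SE, n = 2 libraries per assay), 8.80-fold relative to the median gene, with a limma adjusted p of 0.0218. It was higher than that of 98.2% of genes tested. Etv5 had log2 RPF of 4.93 and 4.60 and log2 mRNA of 1.47 and 0.46. Its centred difference was 2.54 ± 0.44, 5.80-fold, with a limma adjusted p of 0.0437. Etv5 was tested only because RNA-seq replicate 1 (1.78 FPKM) lifted its mean mRNA to 1.08 FPKM, just above the filter. Replicate 2 alone was at 0.375 FPKM. With a pseudocount of 0.1 the adjusted p of Etv5 was 0.0873, and over all alternatives it ranged from 0.00737 to 0.308. Grb2 and Etv5 are the 2 members whose coding sequence recurs in pseudogenes (60.6% and 51.9% of windows), as given above. The effective length also raises the RPF of the short Grb2 coding sequence, and the part of this in its difference was not tested.

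Spry2 had log2 RPF of 3.46 and 2.71, below its log2 mRNA of 5.33 and 4.76 in every library, although RPF exceeds mRNA in the median gene. The centred difference was -3.22 ± 0.41, that is 9.32-fold less RPF for its mRNA than in the median gene, with a limma adjusted p of 0.0275. Of the genes tested, 0.588% had a lower value. Spry2 passed with only 4.01 and 2.0 footprints, but its call did not need centring, since the RPF was also lower without it, by 1.96 log2 units.

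The receptors did not pass the test. The centred difference was 0.29 ± 0.35 for Fgfr1 (95% interval -0.67 to 1.25) and 0.02 ± 0.31 for Fgfr2 (-0.82 to 0.87), with limma adjusted p of 0.586 and 0.962. The interval of Fgfr1 thus reaches past 1 log2 unit upward. For Dusp6 the difference was -0.53 ± 0.30 (-1.36 to 0.29, limma adjusted p of 0.277), and without centring it was 0.73, in the other direction.

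Leaving out an RNA-seq library leaves that assay with 1 sample, which is then assumed to vary like the Ribo-seq pair. Without RNA-seq replicate 1 or replicate 2, limma called 0 genes of 8327, although 938 and 902 genes with higher RPF and 399 and 367 with lower RPF had an unadjusted p under 0.05 and a difference of at least 1. The differences themselves held their direction, at 3.35 and 2.92 for Grb2, 3.05 and 2.02 for Etv5, and -2.93 and -3.52 for Spry2, and their adjusted p was 0.294 and 0.308.

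**Figure D4:**
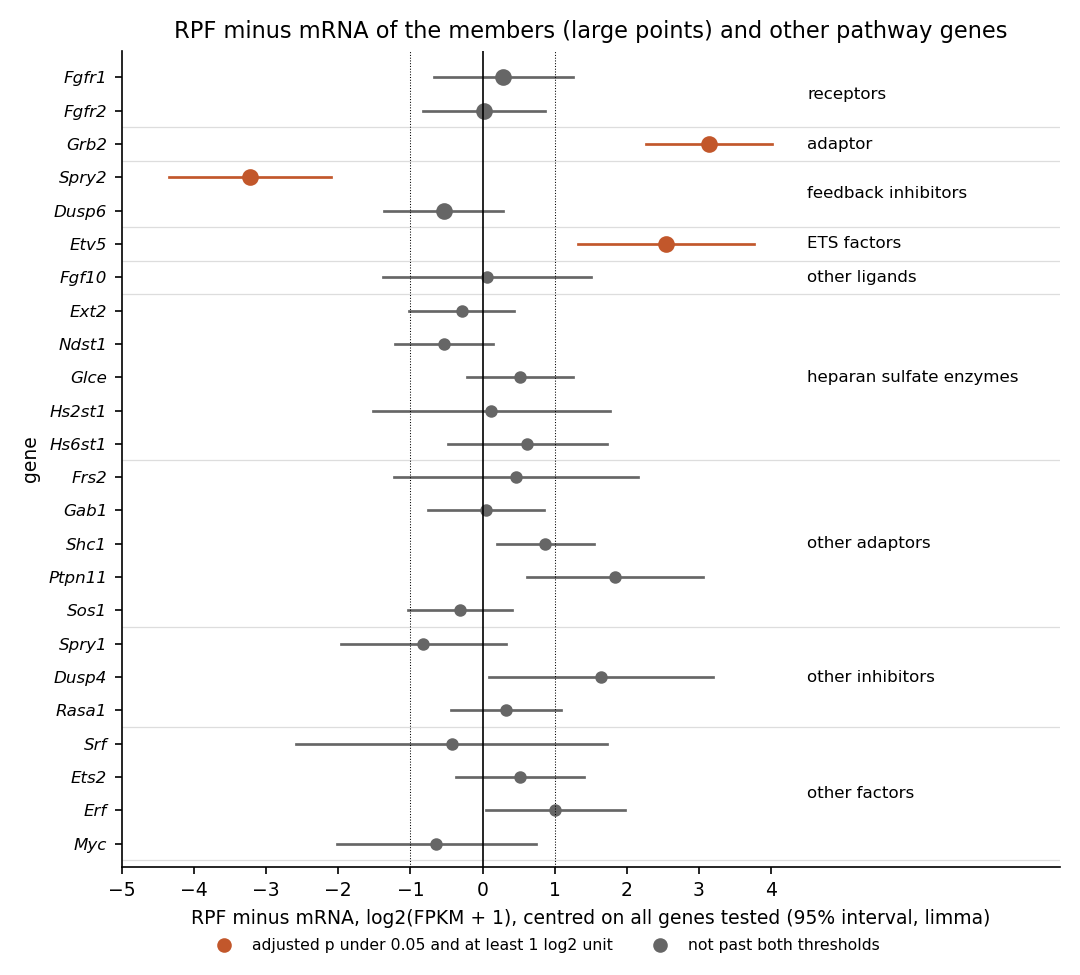
RPF minus mRNA on the log2(FPKM + 1) scale, centred on all genes tested (horizontal axis), with 95% limma intervals, for the 6 members tested (large points) and 18 other genes of the pathway grouped by role. Orange marks the genes past the threshold, Grb2 and Etv5 to the right of 0 and Spry2 to the left.

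Other genes of the pathway were described with 6 lists of 65 genes (ligands, receptors and co-receptors, heparan sulfate enzymes, adaptors and exchange factors, feedback inhibitors, and transcription factors). Of these, 22 were listed at 0 in all libraries and 18 could be tested. Among all 20714 symbols, 13402 were above 0 in some library. With limma, 0 of the 18 passed the threshold, beside 12.4% of all genes tested. A further 3 (Ptpn11, Dusp4, and Erf) had an unadjusted p under 0.05 and a difference of at least 1 log2 unit, each with RPF higher. By the same unadjusted rule, 1482 of the 8327 genes tested had higher RPF and 953 had lower RPF. The median difference of the 18 was 0.22, beside 0 for all genes tested.

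None of the 5 tested genes among 7 other adaptors and exchange factors passed. Gab1, a docking protein, had the highest mean RPF there, at 52.0 and 37.1 FPKM, although the adaptor Shc1 was at 37.5 FPKM in replicate 2. Ptpn11, the phosphatase SHP2, had a centred difference of 1.84 ± 0.44 (limma adjusted p of 0.0708), and Sos1, the exchange factor that GRB2 carries, of -0.31 ± 0.26 (0.444). The RPF of Sos1 was low beside that of Grb2, at 3.48 and 3.29 FPKM. None of the 5 tested heparan sulfate enzymes among 7 passed, and Hs6st1, a sulfotransferase, led that list with RPF of 10.9 and 19.9 FPKM.

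Among 12 other feedback inhibitors, 3 were tested and none passed, with a median difference of 0.33. Dusp4, a phosphatase related to Dusp6, had the highest RPF, at 69.6 and 24.9 FPKM (37.0 and 12 footprints), with mRNA of 4.93 and 4.51 FPKM and a centred difference of 1.64 ± 0.56 (limma adjusted p of 0.128). Dusp6 had 3.82 and 6.11 times the mRNA of Dusp4 but 0.541 and 1.58 times its RPF. Spry1 had mRNA of 2.10 and 3.05 FPKM and RPF of 2.53 and 5.58 FPKM (1.0 and 2.0 footprints), with a centred difference of -0.82 ± 0.42 (limma adjusted p of 0.241). Spred2, a Sprouty-related inhibitor named here after its values were seen, had mRNA of 6.66 and 5.44 FPKM but was listed at 0 for RPF in both libraries, where 3 footprints would be 5.05 and 5.56 FPKM. It was left out of the test because its RPF was under 1 FPKM.

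Of 13 other ERK-responsive transcription factors, 4 were listed at 0 in every library (Ets1, Egr1, Fos, and Fosl1), and none of the 4 tested passed. Erf, an ETS repressor that ERK inactivates, had by far more RPF than Etv5, at 208 and 256 FPKM with mRNA of 37.1 and 59.5 FPKM. Its centred difference was 1.01 ± 0.35 with a limma adjusted p of 0.129.

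The genes whose levels over the 4 libraries were nearest to those of each member, by Euclidean distance in log2(FPKM + 1) among genes tested with the members left out, were as follows. Fgfr1 had Mfn2 and Tnks at 0.20 and 0.24, and Fgfr2 had Gtf2f1 and Kat7 at 0.30 and 0.32. Dusp6 had Med4 and Hmmr at 0.27 and 0.28. Grb2 lay near Igf2bp1 (0.25) and Dazap1 (0.35), both RNA-binding proteins, and Igf2bp1 had mRNA of 4.13 and 3.65 FPKM and RPF of 107 and 79.4 FPKM. Spry2 was nearest to Gnpat (0.38), with the next gene, Lurap1l, already at 0.75. Etv5 was nearest to Gm7102 (0.35) and Tdh, threonine dehydrogenase (0.52). Their mRNA was also higher in replicate 1, at 1.47 and 0.539 FPKM for Gm7102 and 2.60 and 0.343 FPKM for Tdh. A search by these same values favours such neighbours. Fgf4 was nearest to Zfp710 (0.90) and Retreg3 (0.92), Spry4 to Zscan29 (1.51) and St5 (1.52), and Etv4 to Gm6710 (2.03) and Map3k3 (2.18), far because genes under 1 FPKM were not among those searched.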

How the data were processed

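Per-gene FPKM of 2 RNA-seq and 2 Ribo-seq libraries of mouse blastocysts, as deposited by the authors, were used. The authors trimmed reads, removed rRNA reads from Ribo-seq, aligned with STAR (2.5.3a) to mm9 allowing up to 20 places per read, and ran Cufflinks (2.2.1), over whole transcripts in RNA-seq but over coding sequence alone in Ribo-seq. Tools and versions come from the submitters' processing notes. The deposited FPKM carry no counts.

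Members were matched by symbol, and the highest value was used for a repeated symbol (none among the members). The members and lists were chosen with earlier results of these data known. RPF minus mRNA was fitted with limma (3.58.1, R 4.3.3) on log2(FPKM + 1) for 8327 genes with a mean of at least 1 FPKM in both assays, centred on their median, and p-values were adjusted over all of them by the Benjamini-Hochberg method. With 2 libraries against 2, an exact permutation test cannot give a p under 0.333, so none was run. Genes named were the 9 members, list genes past the threshold, the gene of each list with the highest RPF, and the 2 genes nearest to each member. Further list genes were picked with their values in view. A further list of pathway genes is not reported here.

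Fragments were inferred from the steps of low FPKM, with Cufflinks' default effective length (mean 200, SD 80 bases). Of the low values, 60.8% and 58.9% (RNA-seq) and 80.7% and 81.2% (Ribo-seq) fell within 0.1 of a whole fragment, where chance gives 20.0%, so the RNA-seq totals are the less certain. Intervals and the floor of 3 fragments cover counting error only. Sequences and windows came from GENCODE vM1 and NCBIM37. In simulated data, the fit recovered 87% of 200 genes among 8327 changed by 4 log2 units, and 4.92% of its calls fell on genes left alone. That change was larger than the difference of any member tested, and the noise was normal, without counting error of footprints. The recovery of smaller changes was not simulated. The alternatives tried were the pseudocount, filters, centring, quantile normalization, a mean-variance trend, the replicate block, summed rows, and each library left out. Python 3.11.15 with numpy 2.4.6, pandas 2.3.3, scipy 1.17.1, numba 0.67.0, and matplotlib 3.10.9 was used for the rest.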

Additional observations from a re-analysis of the deposited data

How the results depend on the processing

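Counts of genes past the threshold moved with the processing, those of the members included. RPF was higher for 760 genes and lower for 270, so 73.8% of calls were higher. The counts were 413 and 130 with a pseudocount of 0.1, 1997 and 1136 without a filter on low values (13402 genes tested), 4113 and 65 without centring (98.4% higher), and 27 and 1 with the replicate number as a block. The lower calls were 515 with a mean of at least 5 FPKM in both assays (60.5% higher), 574 with quantile normalization (51.8% higher), and 477 with a mean-variance trend. With each library left out in turn, the calls ranged from 0 to 1486 higher and from 0 to 1601 lower, with 0 in both directions without either RNA-seq library, by limma at an adjusted p.

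The 3 members past the threshold became 1 at 5 FPKM, where Grb2 and Etv5 were no longer tested, 5 without centring, 0 with the replicate block, and 0 to 3 with a library left out. The labels do not say whether same-numbered libraries shared embryos. The deviations of same-numbered libraries were uncorrelated (r = 0.01 over 8327 genes). With 2 libraries per assay this cannot decide whether they were paired. In the block fit the limma adjusted p was 0.0744 for Grb2 and Spry2 and 0.0876 for Etv5. The count of 0 other pathway genes became 8 without a filter, 9 without centring, 1 with the trend, and 0 to 4 with a library left out, and stayed at 0 in the other alternatives. Grb2, Spry2, and Etv5 kept their direction in every alternative that tested them. Without centring, Fgfr1 and Fgfr2 passed at 1.55 and 1.29, and without Ribo-seq replicate 1 they stood at 0.60 and 0.24. Fgfr1 turned to -0.17 without Ribo-seq replicate 2. Fgfr2, at 0.02, turned to -0.08 with a pseudocount of 0.1, -0.04 at 5 FPKM, -0.36 with quantile normalization, -0.12 without RNA-seq replicate 1, and -0.34 without Ribo-seq replicate 2. Dusp6 turned to 0.73 without centring. Beyond the construction of each alternative (fewer libraries or genes), the cause was not tested. Without the filter, Fgf4 had a difference of 2.10 (limma adjusted p of 0.108) and Spry4 of 0.16 (0.908). Levels, their order with upper-quartile scaling, and footprints with the full coding length kept their counts within the limits set. Ribo-seq depth limits Fgf4, Spry2, Spry4, and Etv4.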
